A study of Mus musculus with 20 samples.

Results

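Nppa, Nppb, Bmp10, Gja5, Irx3, Irx4, Hey2, Mycn, Nrg1 and Erbb4 are 10 genes chosen by name because each is known from the wall of the developing ventricle. The rule itself uses no measured value, but it was set when earlier results of these data were known. They make up 10 of the 48795 genes in the deposited table and 10 of the 15304 genes expressed strongly enough to be tested. Nppa, Nppb, Bmp10, Gja5 and Irx3 were taken as 5 trabecular genes, Irx4 as a ventricular gene, Hey2 and Mycn as compact-wall genes, and Nrg1 and Erbb4 as a ligand and receptor of neuregulin signalling. None of them lies in the stretch of chromosome 16 that is duplicated in Dp1Tyb mice.

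RNA from 20 whole mouse hearts at E13.5, a stage of midgestation, was sequenced as mRNA libraries, 1 embryo per library. The 10 WT hearts carried 2 copies of every gene. The 5 Dp1Tyb hearts carried 1 duplication of chromosome 16 from Lipi to Zbtb21, a model of Down syndrome. The 5 Dp1TybDyrk1a+/+/- hearts carried the same duplication and a null allele at 1 of the 3 copies of Dyrk1a, which encodes a protein kinase. All groups were on a C57BL/6J background, and the methods state that the duplication and the null allele were brought onto the same chromosome by a crossover found in 1 pup, from which that line descends. Both mutations are present in every cell of the embryo. The hearts are named here by the library numbers of the labels, A1 to A20.

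In the embryonic ventricle, muscle fingers called trabeculae project into the chamber from an outer compact layer that keeps dividing. Neuregulin released by the endocardium binds ErbB receptors on the muscle cells and is required for trabeculae to form. Trabecular muscle makes natriuretic peptides, Bmp10 and a gap junction protein, the product of Gja5, whereas the compact layer makes the Notch-related repressor Hey2 and the growth-promoting factor Mycn. At this age the atria also make Nppa, Bmp10 and Gja5, and the endothelium makes Gja5, Nrg1 and Irx3, so a value from a whole heart sums over these sources. In such bulk samples, fewer cells of a type and less RNA per cell cannot be told apart.

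Values are log2-transformed counts that the authors had normalized for library size. A difference of 0.1 between mean log2 values is a change of about 7 in 100. A gene was called changed at a Benjamini-Hochberg adjusted P-value under 0.05 over all tested genes, from limma, a linear model that shares information on spread between genes. Adjusted P-values below are from that fit. The number of reads per library is unknown, and each estimate is only as precise as the spread of the hearts allows. The deposited values of weakly expressed genes lie close together, with a median SD over hearts of 0.047 at a mean normalized count between 10 and 100 and of 0.068 between 100 and 1000. Differences of weak genes are therefore understated. The members had mean normalized counts from 242 for Nrg1 to 16755 for Nppa.

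Heart A15, a Dp1TybDyrk1a+/+/- heart, stood apart from all the others. Its median correlation with the other hearts over the tested genes was 0.9953, whereas those of the other hearts ran from 0.9977 to 0.9992. Genes with transcripts of at least 8000 bases lay 0.157 above other genes in A15, on the log2 scale relative to each gene's mean, compared to -0.048 to 0.048 in the other 19 hearts. Results that rest on A15 are given with and without it. The hearts were sequenced in lanes 3, 6 and 7, with 3 of the 5 Dp1TybDyrk1a+/+/- hearts in lane 7. Expression of Xist and of genes on the Y chromosome split the hearts into those of XX and XY type, and XX hearts made up 3 of 10 WT, 4 of 5 Dp1Tyb and 1 of 5 Dp1TybDyrk1a+/+/- hearts. Dyrk1a itself was higher in both duplication genotypes than in WT, by 0.32 ± 0.027 (SE) in Dp1Tyb hearts and 0.39 ± 0.027 in hearts labelled Dp1TybDyrk1a+/+/-, and its value therefore does not check the label of the null allele. Markers of atrial, ventricular, endocardial and fibroblast cells were all present. Of 7 markers of neighbouring tissues in WT hearts, the lung markers Nkx2-1 and Sftpc had mean normalized counts of 29.2 and 2.22, the liver markers Afp and Alb 20.8 and 12.9, and the skeletal muscle markers Myog, Myod1 and Pax7 14, 3.16 and 0.66. Their counts in the other genotypes were alike, from 26.7 to 29 for Nkx2-1 and from 20.3 to 22.2 for Afp.

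Promoters are shown for 5 genes because these 5 form the pairs that varied together most closely from heart to heart, Nppb with Bmp10, Nppa with Nppb, and Gja5 with Irx4. Each sequence is RefSeq's for GRCm38.p6, runs 5′ to 3′ on the plus strand, which is the coding strand of all 5 genes, and covers 250 bases before to 50 bases after the annotated start. The windows are chr4:148000472-148000771 for Nppa, chr4:147985650-147985949 for Nppb, chr6:87428744-87429043 for Bmp10, chr3:97032152-97032451 for Gja5 and chr13:73260247-73260546 for Irx4. Capitals mark matches on either strand to the following motifs, and matches that overlap were both kept. The GATA motif was AGATAA. For NKX2-5 the letters AAGTG were searched. The T-box motif was AGGTGT. An E-box was searched as CACGTG. The TATA box was TATAAA. For E2F factors GCGGGAAA was searched. A variant of it was GCGCGAAA.
Nppa: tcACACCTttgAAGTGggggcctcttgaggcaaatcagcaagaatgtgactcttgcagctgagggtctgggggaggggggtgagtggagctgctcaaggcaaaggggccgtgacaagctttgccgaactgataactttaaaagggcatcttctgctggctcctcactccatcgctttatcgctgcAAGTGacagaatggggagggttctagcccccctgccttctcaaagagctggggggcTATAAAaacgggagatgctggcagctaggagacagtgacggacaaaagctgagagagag
Nppb: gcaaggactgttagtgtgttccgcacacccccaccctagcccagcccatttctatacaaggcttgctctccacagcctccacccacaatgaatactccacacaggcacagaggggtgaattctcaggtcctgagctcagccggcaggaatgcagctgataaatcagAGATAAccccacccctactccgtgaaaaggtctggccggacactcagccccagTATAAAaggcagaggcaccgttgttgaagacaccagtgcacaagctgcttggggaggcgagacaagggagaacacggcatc
Bmp10: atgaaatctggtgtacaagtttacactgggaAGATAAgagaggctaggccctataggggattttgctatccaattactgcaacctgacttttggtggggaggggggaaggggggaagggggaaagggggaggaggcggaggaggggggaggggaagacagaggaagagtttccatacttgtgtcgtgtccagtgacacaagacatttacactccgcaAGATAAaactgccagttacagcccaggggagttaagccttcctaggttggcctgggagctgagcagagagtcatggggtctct
Gja5: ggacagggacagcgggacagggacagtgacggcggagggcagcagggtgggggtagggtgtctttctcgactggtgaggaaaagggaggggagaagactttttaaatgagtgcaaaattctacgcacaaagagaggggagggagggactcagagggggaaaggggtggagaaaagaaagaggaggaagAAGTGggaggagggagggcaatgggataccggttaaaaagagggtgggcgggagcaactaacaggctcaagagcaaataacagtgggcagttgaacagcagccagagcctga
Irx4: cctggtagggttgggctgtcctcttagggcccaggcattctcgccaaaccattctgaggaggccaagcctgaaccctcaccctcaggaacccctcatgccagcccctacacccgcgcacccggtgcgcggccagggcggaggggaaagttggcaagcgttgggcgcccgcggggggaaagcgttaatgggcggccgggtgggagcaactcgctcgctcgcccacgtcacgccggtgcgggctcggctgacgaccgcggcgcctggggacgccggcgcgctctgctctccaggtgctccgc

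Nppa and Nppb are neighbours on chromosome 4, with 13516 bases between them. Both promoters held the letters TATAAA, which 13.6% of the 32851 promoters in the table hold. Counted from the annotated start, the first base of this match lay at -9 in Nppa and at -31 in Nppb. The Nppb promoter held 1 match to AGATAA and the Bmp10 promoter 2, and 11.2% of all promoters hold at least 1. Only these letters were searched for GATA factors, so other forms of the site were not counted in any promoter. The Nppa promoter held 2 NKX2-5 motifs and 1 T-box motif, found in 46.4% and 13.7% of all promoters. The Gja5 promoter held 1 NKX2-5 motif, and these letters were not found in the Irx4 window. Of the other members, Irx3 and Erbb4 held 1 NKX2-5 motif each, Hey2 held none of the motifs, and Mycn held the E2F motif GCGCGAAA, which occurs in 0.323% of all promoters. The E-box and GCGGGAAA, in 7.15% and 1.07% of all promoters, were found in none of the 9 member promoters in the table. The annotated start used for Nppb, Irx4 and Erbb4 lay 114, 908 and 517 bases from the end of the gene model, and the gene may have other starts.

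The genes differed widely in level. Scaled by the length of the canonical transcript, the mean log2 level per kb in WT hearts was highest for Nppa, at 14.08 ± 0.173 (SD, n = 10), and lowest for Nrg1, at 5.07 ± 0.111. Nppb followed Nppa at 10.55 ± 0.262, then Gja5 at 10.09 ± 0.0845, Hey2 at 9.45 ± 0.104 and Bmp10 at 9.24 ± 0.177. Irx4 lay at 8.27 ± 0.0977, Mycn at 8.16 ± 0.0683, Irx3 at 7.14 ± 0.0804 and Erbb4 at 6.94 ± 0.116. The WT ranges overlapped between Nppb and Gja5, between Hey2 and Bmp10, between Irx4 and Mycn, and between Irx3 and Erbb4. No other neighbours in this order overlapped. The lengths came from a newer annotation than the one used for counting, so the scale is approximate. Erbb4 spans 1076693 bases of chromosome 1 and Nrg1 1084158 bases of chromosome 8. The authors' strand setting is not given in the sources used here, so reads of antisense transcripts may be included, but Irx3os and Gm13054, which overlap Irx3 and Nppa, had mean normalized counts of only 18.7 and 23.5, compared to 386 for Irx3 and 16755 for Nppa.

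**Figure D1:**
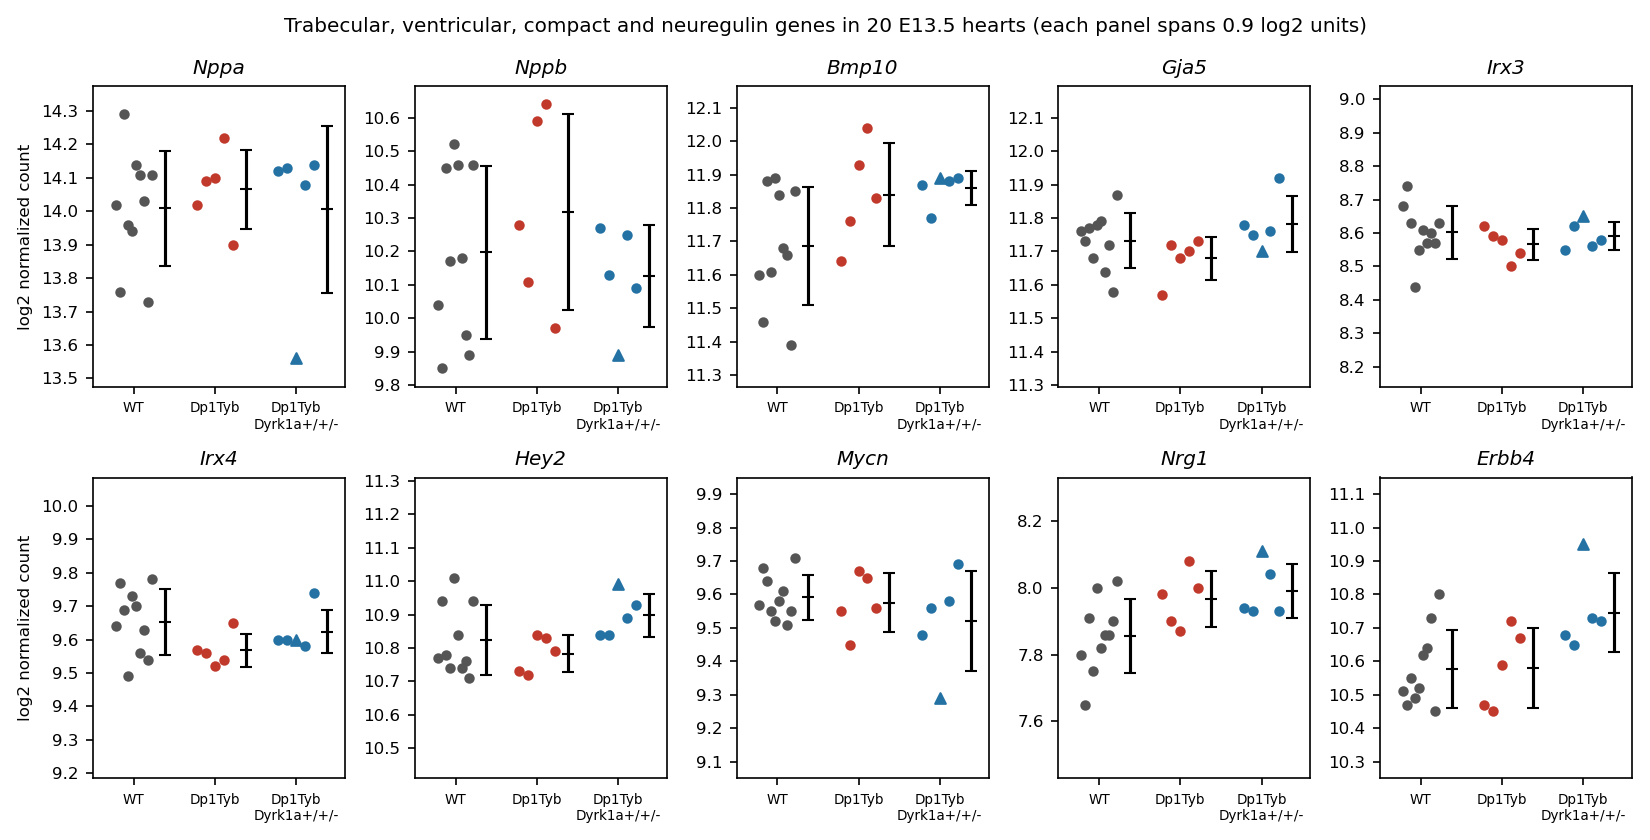
Log2 normalized count (vertical axes, each spanning 0.9 units) of the 10 genes in WT (grey, n = 10), Dp1Tyb (red, n = 5) and Dp1TybDyrk1a+/+/- (blue, n = 5) hearts, 1 point per heart, with the mean and SD in black and heart A15 as a triangle. The points of the genotypes overlap for every gene, and A15 is lowest for Nppa at 13.56 and highest for Erbb4 at 10.95.

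The first question was whether the duplication altered these genes in Dp1Tyb compared to WT hearts. None of the 10 genes was called changed, against 1.81% of all tested genes called higher and 1.27% called lower. For none of them were all Dp1Tyb hearts above or below all WT hearts, as was the case for 2.63% of tested genes. At an unadjusted P-value under 0.05 there was 1 gene, Nrg1, where 15.6% of all tested genes passed. The median difference over the 10 genes was -0.006, and over all tested genes it was -0.002. The second comparison, of Dp1TybDyrk1a+/+/- with the same WT hearts, asked what remained with 2 functional copies of Dyrk1a. Again 0 of the 10 genes were called, against 0.627% of all genes higher and 0.0849% lower. None was free of overlap (0.640% of all genes), and 3 genes had an unadjusted P-value under 0.05, as did 9.64% of all genes. The third comparison set Dp1Tyb against Dp1TybDyrk1a+/+/- hearts. These differ by the null allele, but also by mouse line and in the shares of XX hearts and of lanes given above. The design does not separate these differences. Here too 0 of the 10 genes were called, against 0.425% of all genes higher and 0.738% lower in Dp1Tyb. None was free of overlap (5.65% of all genes), and 2 had an unadjusted P-value under 0.05, as did 18.5% of all genes. The comparisons share hearts, and so their values are set side by side below and are not independent.

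**Figure D2:**
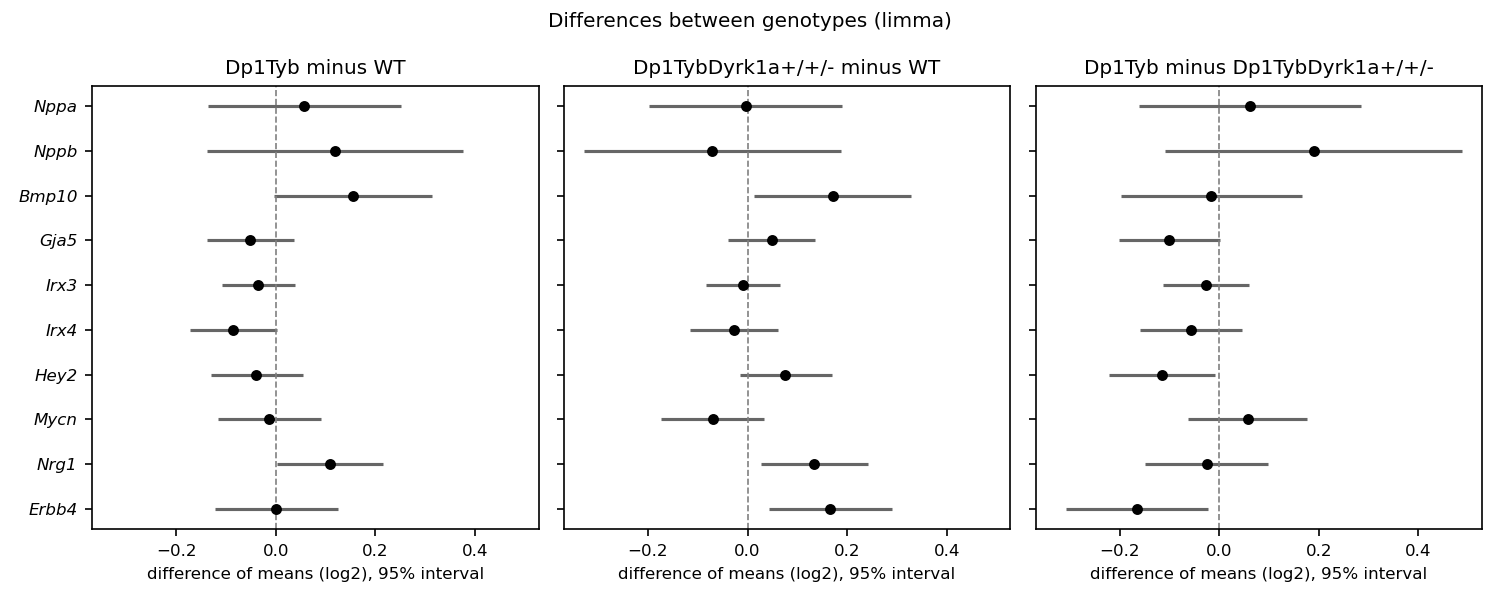
Difference between genotype means (log2, horizontal axes) of each gene in the 3 comparisons, with points for the limma estimate and bars for its 95% interval. The estimates lie between -0.165 for Erbb4 and 0.19 for Nppb, both in Dp1Tyb minus Dp1TybDyrk1a+/+/- hearts, and the widest intervals are those of Nppb and Nppa.

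Among the trabecular genes, Nppa encodes the precursor of atrial natriuretic peptide, a hormone of embryonic chamber muscle. Its log2 value ran from 13.73 to 14.29 in WT hearts, with a median of 14.02. The Dp1Tyb hearts A3, A4, A6, A7 and A12 had 14.02, 14.09, 14.1, 14.22 and 13.9. The Dp1TybDyrk1a+/+/- hearts A9, A14, A15, A17 and A18 had 14.12, 14.13, 13.56, 14.08 and 14.14. Apart from A15, which lay below every other heart, both duplication genotypes fell within the WT range. The difference was 0.06 in Dp1Tyb compared to WT, with a 95% interval of -0.136 to 0.251 and an adjusted P-value of 0.838. In Dp1TybDyrk1a+/+/- compared to WT it was -0.004 (95% interval -0.198 to 0.19, adjusted P-value 0.99), and 0.108 without A15. Dp1Tyb minus Dp1TybDyrk1a+/+/- gave 0.06 (95% interval -0.162 to 0.285, adjusted P-value 0.785), and -0.051 without A15.

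Nppb, which encodes the related B-type natriuretic peptide, varied more between hearts than 98.7% of all tested genes. It ran from 9.85 to 10.52 in WT hearts, with a median of 10.17. In the Dp1Tyb hearts, in the order above, it was 10.28, 10.11, 10.59, 10.64 and 9.97. In the Dp1TybDyrk1a+/+/- hearts it was 10.27, 10.13, 9.89, 10.25 and 10.09. A6 and A7 lay above the highest WT heart, while all Dp1TybDyrk1a+/+/- hearts lay within the WT range. The difference from WT was 0.12 in Dp1Tyb (95% interval -0.139 to 0.376, adjusted P-value 0.716) and -0.07 in Dp1TybDyrk1a+/+/- hearts (95% interval -0.328 to 0.187, adjusted P-value 0.87). Between the duplication genotypes it was 0.19 (95% interval -0.108 to 0.487, adjusted P-value 0.483). Without A15 the last 2 values were -0.013 and 0.131. The intervals are the widest among the 10 genes.

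Bmp10, a secreted growth factor of trabecular and atrial muscle that maintains muscle proliferation, ran from 11.39 to 11.89 in WT hearts, with a median of 11.67. Among Dp1Tyb hearts it was 11.64, 11.76, 11.93, 12.04 and 11.83. The Dp1TybDyrk1a+/+/- values were 11.87, 11.77, 11.89, 11.88 and 11.89. The means of both duplication genotypes lay above the WT mean, but all except A6 and A7 and, by less than 0.01, 1 Dp1TybDyrk1a+/+/- heart were within the WT range. The difference from WT was 0.16 in Dp1Tyb (SE 0.0759, 95% interval -0.003 to 0.313, adjusted P-value 0.334) and 0.17 in Dp1TybDyrk1a+/+/- hearts (95% interval 0.013 to 0.329, adjusted P-value 0.475). Single-gene exact permutation tests over hearts, two-sided, gave p = 0.119 and p = 0.0539, where the smallest p that 3003 regroupings allow is 0.000333. Between the duplication genotypes the difference was -0.02 (95% interval -0.198 to 0.166). With the mean of 10 cardiomyocyte markers as a covariate, the Dp1Tyb difference from WT was 0.232 and passed the threshold (adjusted P-value 0.0225), the only member and setting where this happened. The corresponding value in Dp1TybDyrk1a+/+/- hearts was 0.1 (adjusted P-value 0.711). Without a covariate, that marker mean was 14.13 ± 0.115 (SD, n = 10) in WT, 14.06 ± 0.0817 (n = 5) in Dp1Tyb and 14.19 ± 0.0652 (n = 5) in Dp1TybDyrk1a+/+/- hearts. It weighs its genes unequally, since Ttn had an SD of 0.457 over WT hearts and the other markers 0.0945 to 0.185. In A15 the cardiomyocyte mean was 14.274, the highest of its genotype, whereas the ventricular marker mean was 13.628, the lowest. The part of Ttn in this covariate, also used for other genes below, was not tested.

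Gja5, which encodes the gap junction channel of fast-conducting trabecular and atrial muscle and of arterial endothelium, ran from 11.58 to 11.87 in WT hearts, with a median of 11.74. In Dp1Tyb hearts it was 11.57, 11.72, 11.68, 11.7 and 11.73, and the Dp1TybDyrk1a+/+/- values were 11.78, 11.75, 11.7, 11.76 and 11.92. The 2 duplication genotypes lay on either side of WT, with differences of -0.05 (adjusted P-value 0.62) and 0.05 (adjusted P-value 0.727). Against each other they differed by -0.1 (95% interval -0.201 to 0.001, adjusted P-value 0.274). The exact permutation test of this gene alone gave p = 0.0397, where the smallest p that 252 regroupings allow is 0.00794, before any correction for the 10 genes and 3 comparisons. With cardiomyocyte markers as a covariate the difference was -0.034 (adjusted P-value 0.811).

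Irx3, a homeobox factor of the trabecular layer and conduction system, had the smallest SD of the 10 genes over all 20 hearts, 0.064. It ran from 8.44 to 8.74 in WT hearts, and all values of both duplication genotypes, from 8.5 to 8.65, lay within that range. Its differences were -0.04 in Dp1Tyb compared to WT (95% interval -0.109 to 0.039), -0.01 in Dp1TybDyrk1a+/+/- compared to WT (95% interval -0.083 to 0.065) and -0.03 between them (95% interval -0.112 to 0.06), with adjusted P-values of 0.71, 0.946 and 0.762. Without A15 the last 2 differences were -0.023 and -0.012. These 95% intervals, not adjusted for the number of genes, reached no further than 0.112 from 0 on the deposited log2 scale.

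Irx4, a homeobox factor that marks ventricular muscle of both layers, ran from 9.49 to 9.78 in WT hearts, with a median of 9.66. The Dp1Tyb values were 9.57, 9.56, 9.52, 9.54 and 9.65, and the Dp1TybDyrk1a+/+/- values were 9.6, 9.6, 9.6, 9.58 and 9.74. All Dp1Tyb hearts were below the WT median and within the WT range. The difference from WT was -0.08 in Dp1Tyb (SE 0.0424, 95% interval -0.173 to 0.003, adjusted P-value 0.346) and -0.03 in Dp1TybDyrk1a+/+/- hearts (adjusted P-value 0.85). Between the duplication genotypes it was -0.06 (adjusted P-value 0.539). Of 7 other ventricular muscle markers, 0 were called in any comparison, and their median difference was -0.065 in Dp1Tyb and 0.058 in Dp1TybDyrk1a+/+/- compared to WT hearts. In Dp1Tyb compared to WT hearts 3 of the 7 lay above 0, and they ran from -0.18 for Myh7 to 0.15 for Cited1. At an unadjusted P-value under 0.05 there were 5, 1 and 2 of them in the 3 comparisons, where 15.6%, 9.64% and 18.5% of all tested genes passed.

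Of the compact-wall genes, Hey2 encodes a repressor that keeps trabecular genes off in the compact layer. It ran from 10.71 to 11.01 in WT hearts, with a median of 10.78. The Dp1Tyb values were 10.73, 10.72, 10.84, 10.83 and 10.79, and the Dp1TybDyrk1a+/+/- values were 10.84, 10.84, 10.99, 10.89 and 10.93. At 2 decimals the highest Dp1Tyb heart and the lowest Dp1TybDyrk1a+/+/- hearts coincided, and the ranges overlapped by less than that. The difference between them was -0.12 (SE 0.0514, 95% interval -0.222 to -0.008, adjusted P-value 0.235), and the exact permutation test of this gene alone gave p = 0.0159. Without A15 it was -0.092 (adjusted P-value 0.367), and with cardiomyocyte markers as a covariate -0.048 (adjusted P-value 0.749). The differences from WT were -0.04 (adjusted P-value 0.75) and 0.08 (adjusted P-value 0.599).

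Mycn, a transcription factor required for growth of the compact wall, ran from 9.51 to 9.71 in WT hearts, with a median of 9.57. In Dp1Tyb hearts Mycn was 9.55, 9.45, 9.67, 9.65 and 9.56, and in Dp1TybDyrk1a+/+/- hearts 9.48, 9.56, 9.29, 9.58 and 9.69. A15 was again the lowest heart of all. The differences from WT were -0.01 in Dp1Tyb (95% interval -0.117 to 0.09, adjusted P-value 0.934) and -0.07 in Dp1TybDyrk1a+/+/- hearts (95% interval -0.174 to 0.033, adjusted P-value 0.669). Without A15 the latter was -0.014, and the difference between the duplication genotypes went from 0.06 to 0.

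Nrg1, the neuregulin ligand made by endocardial cells, ran from 7.65 to 8.02 in WT hearts, with a median of 7.86. The Dp1Tyb values were 7.98, 7.9, 7.87, 8.08 and 8, and the Dp1TybDyrk1a+/+/- values were 7.94, 7.93, 8.11, 8.04 and 7.93. Each of the 10 duplication hearts lay above the WT median, and 3 lay above the highest WT heart. The difference from WT was 0.11 in Dp1Tyb (SE 0.0512, 95% interval 0.002 to 0.215, adjusted P-value 0.311) and 0.13 in Dp1TybDyrk1a+/+/- hearts (95% interval 0.027 to 0.241, adjusted P-value 0.388). The exact permutation tests of this gene alone gave p = 0.0803 and p = 0.034. Between the duplication genotypes the difference was -0.03 (95% interval -0.149 to 0.098, adjusted P-value 0.843), and 0.004 without A15. Under the 14 alternative fits the difference from WT stayed between 0.091 and 0.145 in Dp1Tyb and between 0.1 and 0.146 in Dp1TybDyrk1a+/+/- hearts, with adjusted P-values no lower than 0.0937 and 0.109.

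Erbb4, the receptor on muscle cells that binds neuregulin, ran from 10.45 to 10.8 in WT hearts, with a median of 10.54. In Dp1Tyb hearts Erbb4 was 10.47, 10.45, 10.59, 10.72 and 10.67, and the Dp1TybDyrk1a+/+/- values were 10.68, 10.65, 10.95, 10.73 and 10.72. All Dp1TybDyrk1a+/+/- hearts lay above the WT median, and A15 lay above every other heart. The difference from WT was 0.17 in Dp1TybDyrk1a+/+/- hearts (SE 0.0595, 95% interval 0.043 to 0.29, adjusted P-value 0.348) and 0.001 in Dp1Tyb hearts (95% interval -0.122 to 0.125). The exact permutation test of this gene alone gave p = 0.0213 for Dp1TybDyrk1a+/+/- compared to WT hearts. Between the duplication genotypes the difference was -0.16 (95% interval -0.308 to -0.022, adjusted P-value 0.204). Without A15 these values were 0.115 (adjusted P-value 0.409) and -0.114 (adjusted P-value 0.367). With cardiomyocyte markers as a covariate they were 0.109 (adjusted P-value 0.448) and -0.045 (adjusted P-value 0.778). The canonical Erbb4 transcript has 12438 bases, and the value moved with the score of long transcripts described above over hearts, as given below.

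The balance between the layers was also described per heart, as the mean log2 value of the 5 trabecular genes minus that of the 2 compact genes. It was 1.04 ± 0.115 (SD, n = 10) in WT, 1.11 ± 0.065 (n = 5) in Dp1Tyb and 1.06 ± 0.0637 (n = 5) in Dp1TybDyrk1a+/+/- hearts. The WT hearts ran from 0.8 to 1.2, a range that held all the others, from 0.99 to 1.18.

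Within genotypes, several of the genes rose and fell together from heart to heart. After the genotype means were subtracted, 3 of the 45 pairs had an adjusted P-value under 0.05 for Pearson's r, all of them positive (permutation test, two-sided, 100000 resamples within genotypes, adjusted over the 45 pairs). The share among pairs of other tested genes was not determined. Nppb and Bmp10 had r = 0.79 (permutation p = 0.00032, adjusted 0.0099) and rho = 0.76 (permutation p = 0.00089, adjusted 0.0317). Their r was 0.73 without the 2 hearts farthest from the median of Nppb, 0.83 without A15, and 0.95, 0.96 and 0.8 within lanes 3, 6 and 7. The neighbours Nppa and Nppb had r = 0.67 (permutation p = 0.00055, adjusted 0.0099) and rho = 0.62 (permutation p = 0.00374, adjusted 0.0548). Their r was 0.63 without the 2 farthest hearts and 0.86, 0.49 and 0.63 within the lanes. Gja5 and Irx4 had r = 0.74 (permutation p = 0.00066, adjusted 0.0099) and rho = 0.71 (permutation p = 0.00141, adjusted 0.0317). Their r was 0.64 without the 2 farthest hearts and 0.8, 0.66 and 0.92 within the lanes.

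Among the trabecular genes, no relation of Irx3 with Nppa, Nppb or Bmp10 was detected. Irx3 varied little over the hearts (SD 0.064), so a relation could have been missed. Irx3 had r = -0.21, -0.3 and -0.25 with Nppa, Nppb and Bmp10, with unadjusted permutation p of 0.389, 0.255 and 0.388. Its highest r was 0.51 with Irx4 and fell to 0.08 without the 2 farthest hearts. The compact genes Hey2 and Mycn had r = 0.16 with each other (permutation p = 0.464). Hey2 had r = 0.66 with Irx4 (permutation p = 0.00703, adjusted 0.0633), and 0.59 without the 2 farthest hearts. The ligand Nrg1 and its receptor Erbb4 had r = 0.58 (permutation p = 0.0124, adjusted 0.0795), and r = 0.41, 0.21 and 0.75 within lanes 3, 6 and 7. Nppa and Mycn had r = 0.55 over all hearts (permutation p = 0.0454, adjusted 0.168) and 0.3 without A15, and r = 0.81, -0.42 and 0.88 within lanes 3, 6 and 7, of which lane 7 holds A15.

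**Figure D3:**
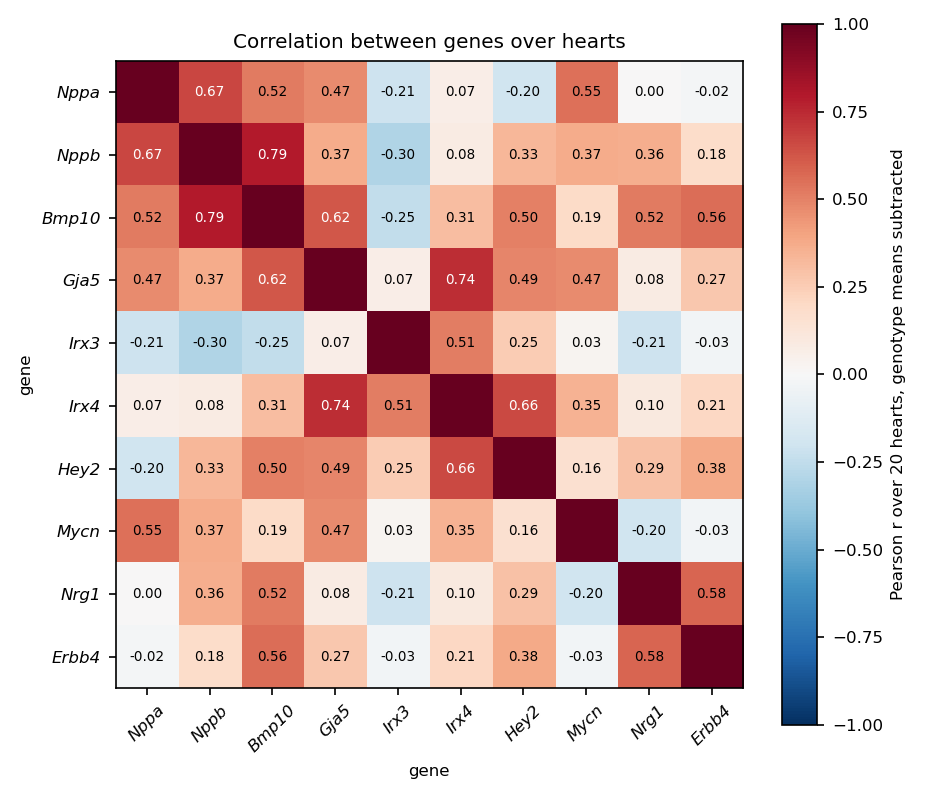
Pearson r over 20 hearts between each pair of the 10 genes (both axes), after subtracting genotype means, with blue for negative and red for positive r. The highest values are 0.79 for Nppb with Bmp10, 0.74 for Gja5 with Irx4 and 0.67 for Nppa with Nppb, whereas Irx3 is at -0.3 with Nppb.

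The genes most like each member over the 20 hearts, by Pearson r among the 11399 genes whose normalized count averaged 100 or more, are given as a description. Genotype means were not subtracted here, and all values share libraries. Myl4, the atrial light chain that embryonic ventricles also make, came first for Nppa (r = 0.95). Lrrc59 came first for Nppb (r = 0.85) and the imprinted gene Mest first for Bmp10 (r = 0.92), followed by Tmem163 (r = 0.92) and the endothelial receptor gene Gpr182 (r = 0.88). Pmpca and Popdc1 came first for Gja5 (both r = 0.88), Fam81a for Irx4 (r = 0.88) and Mrpl23-ps1 for Irx3, at only r = 0.68. Hey2 was most like Lmod2, a sarcomere protein (r = 0.9), Pln, the phospholamban of ventricular muscle (r = 0.89), and S1pr1 (r = 0.88). Mycn was most like Dzip1l (r = 0.85), Nrg1 most like Dpp4 (r = 0.89) and Hapln1 (r = 0.84), a link protein of the cardiac jelly, and Erbb4 most like the chromatin remodeller Chd7 (r = 0.93).

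Members also moved with cell type markers within genotypes. The scores were the mean log2 values of marker genes, none of which is a member, plus the score of long transcripts, and they were chosen after values had been seen. Of 60 relations between 10 members and 6 scores, 19 had an adjusted P-value under 0.05, 14 positive and 5 negative (permutation test, two-sided, 100000 resamples within genotypes). The share of all tested genes related to these scores was not determined, so the count is not a trait particular to the members. Bmp10 rose with 10 endocardial and endothelial markers, with r = 0.88 (permutation p = 3e-05, adjusted 0.0012), rho = 0.86 (permutation p = 9e-05, adjusted 0.00135), and r = 0.97, 0.76 and 0.82 within lanes 3, 6 and 7. It also rose with cardiomyocyte markers, with r = 0.75 (permutation p = 0.0004, adjusted 0.004) and rho = 0.83 (permutation p = 4e-05, adjusted 0.0012). Its r of 0.69 with atrial markers (permutation p = 0.00271, adjusted 0.0125) and rho of 0.58 (permutation p = 0.0142, adjusted 0.0473) did not hold within lane 7, where r was -0.82 over 6 hearts. Gja5 rose with endothelial markers at r = 0.76 (permutation p = 0.00024, adjusted 0.004) and rho = 0.78 (permutation p = 0.00016, adjusted 0.00192). With ventricular markers Gja5 had r = 0.74 (permutation p = 0.00073, adjusted 0.00438), and 0.83, 0.46 and 0.87 within lanes 3, 6 and 7. Its r with cardiomyocyte markers was 0.63 (permutation p = 0.00628, adjusted 0.0235), but rho, at 0.5, did not pass (adjusted 0.0911). Irx4 and Mycn rose with ventricular markers too, at r = 0.75 and 0.71 (permutation p = 0.00069 and 0.00057, both adjusted 0.00438). Without the 2 hearts farthest from the median of the score, the r of Bmp10 and Gja5 with endothelial markers was 0.82 and 0.62.

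Fibroblast markers went the other way, with r = -0.77 for Gja5 (permutation p = 0.00036, adjusted 0.004; rho = -0.71, permutation p = 0.00121, adjusted 0.0107) and r = -0.62 for Nppb (permutation p = 0.00063, adjusted 0.00438; rho = -0.65, permutation p = 0.00125, adjusted 0.0107). Without the 2 farthest hearts r was -0.59 and -0.73, and it was negative within each lane for both. Erbb4 rose with cardiomyocyte markers at r = 0.78 (permutation p = 4e-05, adjusted 0.0012) and rho = 0.83 (permutation p = 4e-05, adjusted 0.0012), and r was 0.66 without the 2 farthest hearts. Erbb4 also rose with the long-transcript score, at r = 0.75 (permutation p = 0.00037, adjusted 0.004) and rho = 0.62 (permutation p = 0.00304, adjusted 0.0185). That r was 0.71 without A15 and 0.49, 0.23 and 0.83 within the lanes. With this score as a covariate, none of the 10 genes was called in any comparison. The part of cell makeup in these relations was not tested, nor was that of Ttn, the most variable of the cardiomyocyte markers.

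**Figure D4:**
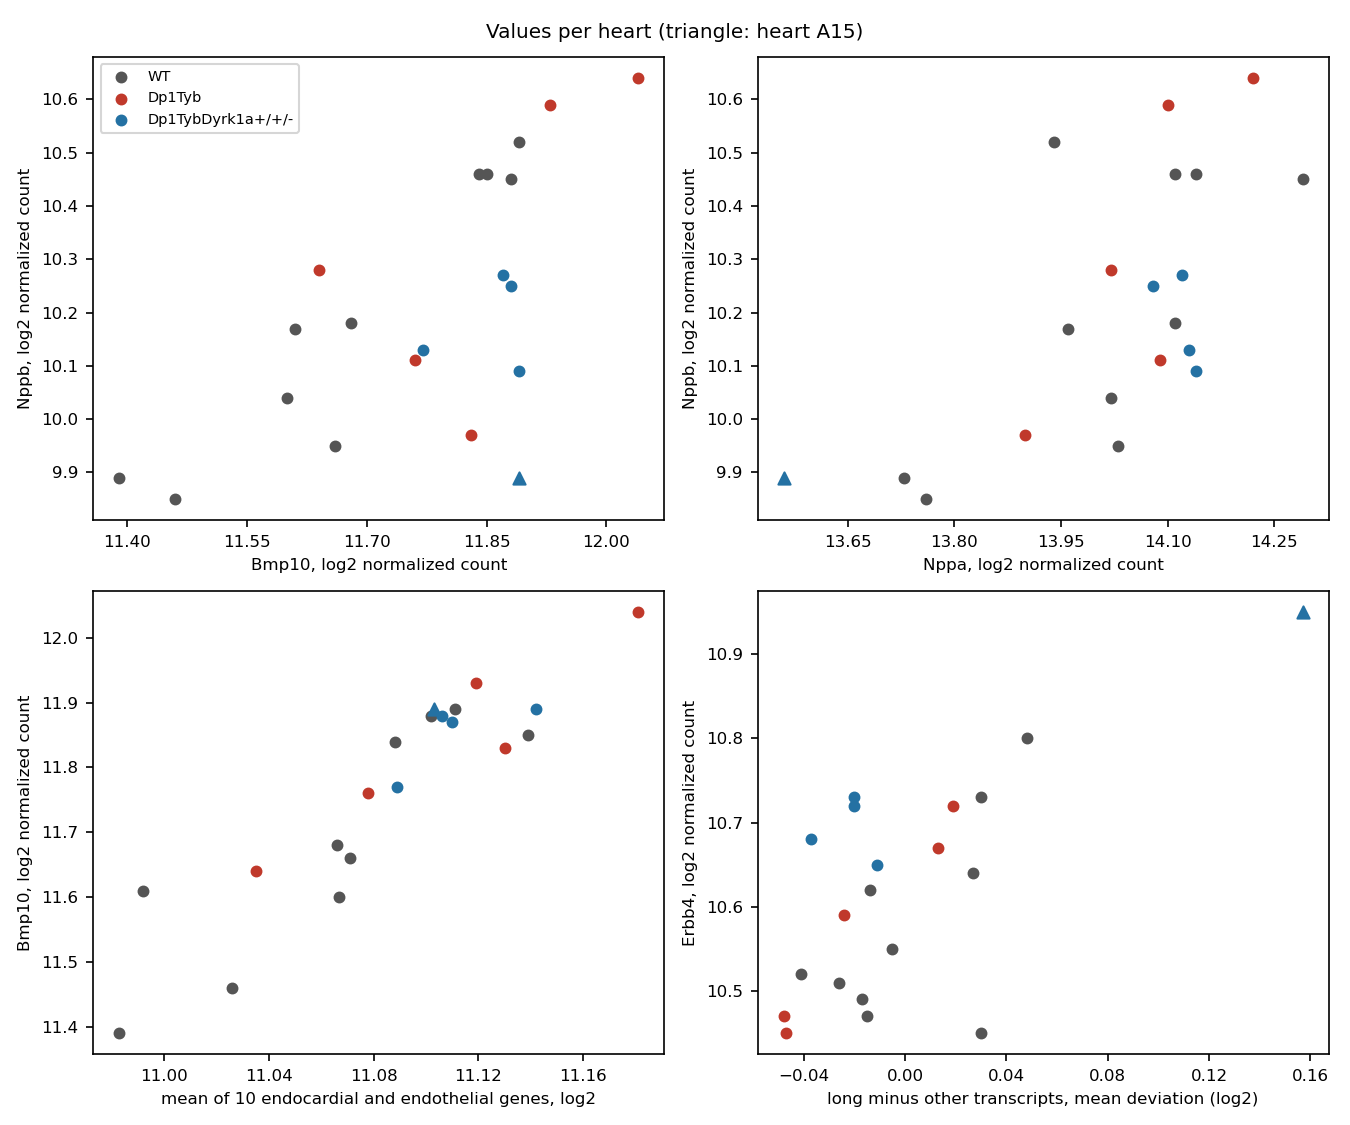
Values per heart of 4 pairs, on log2 scales: Nppb against Bmp10, Nppb against Nppa, Bmp10 against the mean of 10 endocardial and endothelial genes, and Erbb4 against the long-transcript score. Grey points are WT, red Dp1Tyb and blue Dp1TybDyrk1a+/+/- hearts, and the triangle is A15, which is farthest right for the long-transcript score at 0.157 and farthest left for Nppa at 13.56.

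The surroundings of these genes were examined in 8 lists of pathway partners. Among 22 upstream signals of trabeculation, 2 were higher in Dp1Tyb than in WT hearts and 0 lower, and the list median was 0.023. Of all tested genes, 1.81% were called higher and 1.27% lower there, and 0.627% higher in Dp1TybDyrk1a+/+/- compared to WT hearts. The 2 genes were Adamts1, a protease that degrades the cardiac jelly, and Has2, the enzyme that makes its hyaluronan. Adamts1 ran from 11.32 to 11.61 in WT, from 11.75 to 11.93 in Dp1Tyb and from 11.68 to 11.88 in Dp1TybDyrk1a+/+/- hearts, with no overlap of either duplication genotype with WT. It lies inside the duplicated region, at chr16:85793827-85803113 of GRCm38, and so has 3 copies. It rose by 0.31 ± 0.041 (SE, adjusted P-value 4.36e-05) in Dp1Tyb and by 0.22 ± 0.041 (adjusted P-value 0.00538) in Dp1TybDyrk1a+/+/- compared to WT hearts. Has2, outside the region, ran from 8.42 to 8.54 in WT and from 8.64 to 8.72 in Dp1Tyb hearts, and rose by 0.19 ± 0.027 (adjusted P-value 0.000115). In Dp1TybDyrk1a+/+/- hearts it ran from 8.53 to 8.68 and was not called (0.1, adjusted P-value 0.138). All 14 alternative fits and all 15 omissions of a heart kept the calls of Has2 and Adamts1. Of the Notch, Ephrin and angiopoietin genes in the list, such as Notch1, Dll4 and Angpt1, 0 were called.

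Of 29 tested partners of neuregulin signalling, 1 was called in Dp1Tyb compared to WT hearts. Of all tested genes, 1.81% were called higher and 1.27% lower there, and 0.425% and 0.738% in Dp1Tyb compared to Dp1TybDyrk1a+/+/- hearts. Lrig1, a membrane protein that restrains ErbB receptors, ran from 9.85 to 9.97 in WT and from 9.97 to 10.11 in Dp1Tyb hearts, a difference of 0.11 ± 0.0248 (SE, adjusted P-value 0.0121). It was also higher in Dp1Tyb than in Dp1TybDyrk1a+/+/- hearts, by 0.12 ± 0.0286 (adjusted P-value 0.0396), a call that 7 of 14 alternative fits and 4 of 10 omissions of a heart kept. Without Dp1Tyb heart A6 the adjusted P-value against WT was 0.0571. The co-receptors Erbb2 and Erbb3 were not called in any comparison, with differences from WT in Dp1Tyb hearts of 0.03 and 0.09 (adjusted P-values 0.823 and 0.289). The list median was 0.013 in Dp1Tyb and -0.003 in Dp1TybDyrk1a+/+/- compared to WT hearts.

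Of 21 BMP10 pathway genes, Acvr2a alone was called, in Dp1Tyb compared to WT hearts, where 1.27% of all tested genes were called lower. This type II receptor ran from 10.05 to 10.16 in WT and from 9.98 to 10.02 in Dp1Tyb hearts, and it fell by 0.09 on the log2 scale (SE 0.0205, adjusted P-value 0.0129). The call was lost with sex-linked expression as a covariate and without Dp1Tyb heart A4, with an adjusted P-value of at most 0.082. In the natriuretic peptide system, Npr1, the receptor for both peptides, was higher in Dp1Tyb hearts (8.81 to 8.94) than in WT hearts (8.53 to 8.78), by 0.17 ± 0.0446 (adjusted P-value 0.0417). Only 9 of 14 alternative fits and 4 of 15 omissions of a heart kept this call, and the adjusted P-value reached 0.159. The other 6 tested genes of that list were not called, and 1.81% of all tested genes were called higher in Dp1Tyb compared to WT hearts.

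Among 12 other trabecular genes, Kcne1, a potassium channel subunit, was called in Dp1TybDyrk1a+/+/- compared to WT hearts, by 0.34 ± 0.0581 (SE, adjusted P-value 0.00171). It lies in the duplicated region, at chr16:92346001-92359468 of GRCm38, and ran from 9.39 to 9.8 in WT, 9.7 to 9.84 in Dp1Tyb and 9.82 to 10.07 in Dp1TybDyrk1a+/+/- hearts. In Dp1Tyb compared to WT hearts the difference was 0.21 (adjusted P-value 0.0568). The other 11 genes of that list were not called, and its medians were 0.008, 0.057 and -0.035 in the 3 comparisons. Of all tested genes, 0.627% were called higher in Dp1TybDyrk1a+/+/- compared to WT hearts. Of 14 tested compact-wall genes, 13 cardiac factors that bind natriuretic peptide promoters, such as Gata4, Nkx2-5 and Tbx5, and 12 tested relatives of the members, 0 were called in any comparison. At an unadjusted P-value under 0.05 there were 3, 1 and 4 compact-wall genes, 0, 1 and 3 cardiac factors, and 4, 0 and 1 relatives in the 3 comparisons, in the order above, where 15.6%, 9.64% and 18.5% of all tested genes passed.

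**Figure D5:**
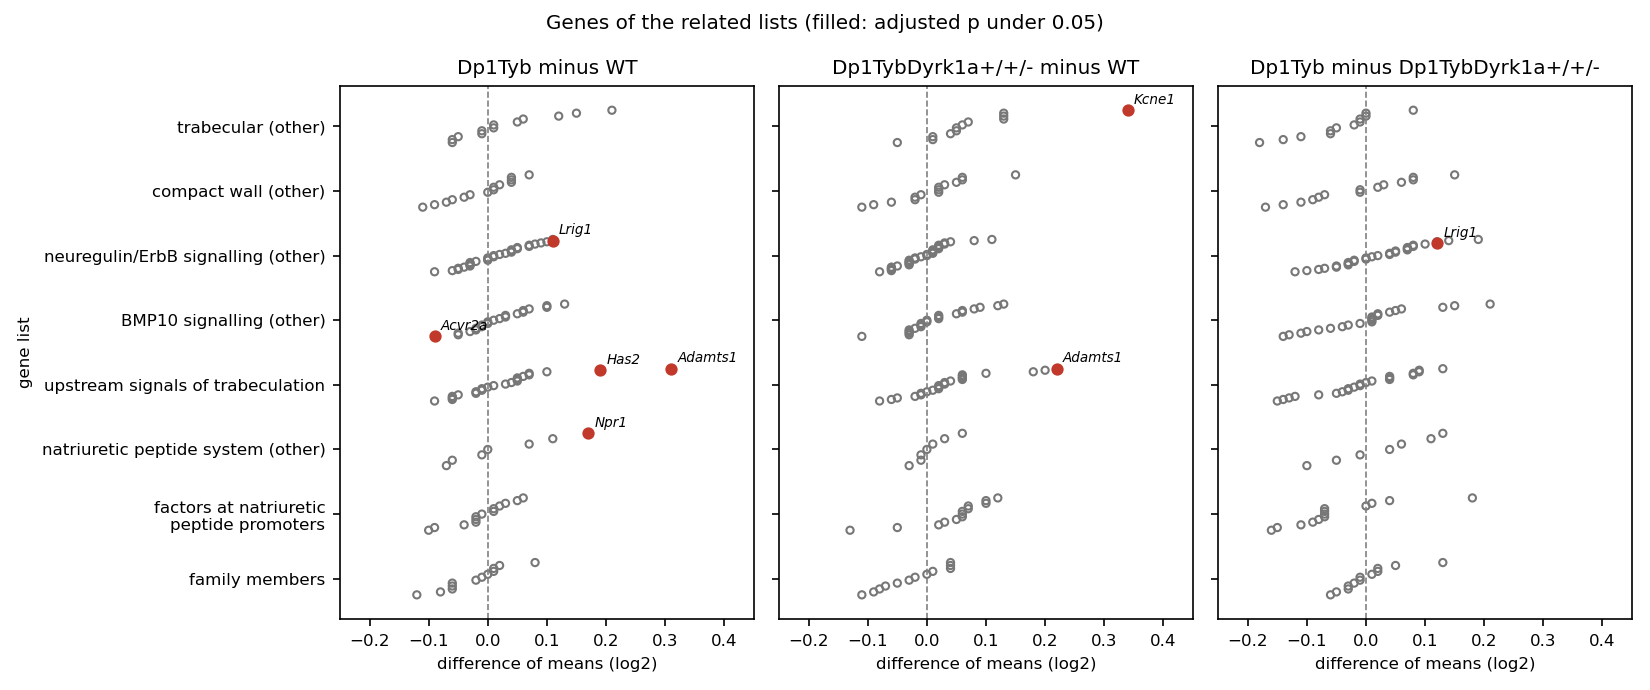
Difference between genotype means (log2, horizontal axes) of each tested gene of 8 lists of partners (rows) in the 3 comparisons, with filled points for genes called at an adjusted P-value under 0.05. Adamts1 and Kcne1, at 0.31 and 0.34, lie farthest to the right and both have 3 copies, and the unfilled points of each list spread to both sides of 0 in Dp1Tyb minus WT.

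The cardiomyocyte markers had a median difference of -0.076 in Dp1Tyb and 0.058 in Dp1TybDyrk1a+/+/- compared to WT hearts, with 0 of 10 called in either. In Dp1Tyb minus Dp1TybDyrk1a+/+/- hearts the median was -0.135, again with 0 of 10 called, and Tnnt2, Tnnc1 and Tnni3, at -0.22, -0.19 and -0.15 (adjusted P-values 0.084, 0.0901 and 0.131), did not overlap between these genotypes. Nor did the ventricular markers Myl2 and Pln, at -0.19 and -0.16 (adjusted P-values 0.112 and 0.16). Of all tested genes, 5.65% did not overlap between these genotypes. Of the 7 ventricular markers 0 were called, and 2 lay above 0, Cited1 at 0.08 and Myl3 at 0.01. Of the 10 members, 3 lay above 0 in this comparison, Nppa, Nppb and Mycn, and the others lay below 0. The mean of the cardiomyocyte markers ran from 13.96 to 14.37 in WT, from 13.99 to 14.2 in Dp1Tyb and from 14.11 to 14.27 in Dp1TybDyrk1a+/+/- hearts. The fibroblast markers had medians of 0.097, -0.006 and 0.104 in the 3 comparisons, with 0 of 9 called, and their mean ran from 12.25 to 12.62 in WT, from 12.5 to 12.67 in Dp1Tyb and from 12.31 to 12.7 in Dp1TybDyrk1a+/+/- hearts. Of 10 endocardial and endothelial markers, Plvap was called in Dp1Tyb compared to WT hearts (0.17, adjusted P-value 0.0367), and of 6 macrophage markers, Lyz2 (0.28, adjusted P-value 0.000486). Of all tested genes, 1.81% were called higher there, and 0.425% in Dp1Tyb compared to Dp1TybDyrk1a+/+/- hearts. Lyz2 was also higher in Dp1Tyb than in Dp1TybDyrk1a+/+/- hearts (0.23, adjusted P-value 0.0327), where 0 of the endocardial and endothelial markers were called. The part of these cell types in the values of the 10 genes was not tested beyond the covariates above. The means of Bmp10, of the endothelial markers and of the atrial markers all lay above those of WT in both duplication genotypes. The endothelial mean was 11.06 ± 0.0507 (SD, n = 10) in WT, 11.11 ± 0.0551 (n = 5) in Dp1Tyb and 11.11 ± 0.0196 (n = 5) in Dp1TybDyrk1a+/+/- hearts. The atrial mean was 10.33 ± 0.108, 10.37 ± 0.0336 and 10.36 ± 0.0465 in the same order.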

How the data were processed

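Hearts were snap frozen, RNA was extracted with RNeasy kits and mRNA libraries were made with the KAPA mRNA HyperPrep kit. The submitters' processing notes name Trimmomatic 0.36, STAR 2.5.2a, RSEM 1.2.31, DESeq2 and GRCm38, while the strand setting is not given in the sources used here. The authors deposited log2-transformed counts normalized for library size over all 20 hearts, with 1 value per gene and heart, which run from -2.31 to 18.97. Genes with a mean normalized count (2 to the power of the value) of at least 10 entered a linear model of limma 3.58.1 (R 4.3.3) with 1 mean per genotype over 20 hearts and a mean-variance trend, and P-values were adjusted by the Benjamini-Hochberg method. DESeq2, the authors' test, needs counts and was not used here. No pseudocount was added. The study compares mutants with WT littermates, but the labels do not give litters, so all 10 WT hearts were used. The limma P-values set a difference of means against the spread between hearts within genotypes, which the model shares in part between genes.

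The members, lists and tests were chosen with earlier results of these data known. All 10 members are named, and of the lists every gene past the threshold, with others as examples of genes not called. Names came from GENCODE M39, which matched 44565 of 48795 genes, and coordinates from RefSeq (GRCm38.p6). Correlations used genotype-centred values and Python 3.11.15 with numpy 2.4.6. The fit and the correlations were tested on simulated data. The protein sequences of the members were not analysed here, nor was the promoter of Nrg1. Alternatives comprised other filters, normalizations, variance models, heart weights, covariates, lanes and omission of each heart.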

Additional observations from a re-analysis of the deposited data

Results flagged for a closer look

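In 4 of 30 groups of hearts, 10 genes in 3 genotypes, the highest or lowest heart was separated from the others by a gap that exceeded Dixon's 95% critical value, which chance alone exceeds in about 1 in 20 groups. All 4 were groups of Dp1TybDyrk1a+/+/- hearts. Nppa was 13.56 in heart A15, where the next lowest heart had 14.08. Erbb4 was 10.95 in the same heart, where the next highest had 10.73. Bmp10 was 11.77 in heart A14, where the next lowest had 11.87, although 11.77 lies within the WT range. Irx4 was 9.74 in heart A18, where the next highest had 9.6, and this value too lies within the WT range. The cause of these values was not tested.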

How the results depend on the processing

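None of the 10 members was called in any of the 3 comparisons under the 14 alternative fits or with any heart left out, with 1 exception: in Dp1Tyb compared to WT hearts the count was 1 (Bmp10) with cardiomyocyte markers as a covariate. With values exchanged over all hearts in place of within genotypes, 5 pairs of members in place of 3 had an adjusted P-value under 0.05. The sign of small differences, none of them called, turned as follows, and the cause was not tested. In Dp1Tyb compared to WT, Mycn was 0.003 with cardiomyocyte markers as a covariate, and Erbb4 was -0.004 with median centring, -0.021 with array weights and -0.004 with atrial markers as a covariate. In Dp1TybDyrk1a+/+/- compared to WT, Nppa was 0.003 with median centring, 0.09 with array weights, 0.028 with lane and 0.02 with the long-transcript score as a covariate, Nppb was 0.041 with array weights, and Irx3 was 0 with quantile normalization and 0.003 with atrial markers. In Dp1Tyb compared to Dp1TybDyrk1a+/+/-, Nppa was -0.036 with array weights and -0.001 with the long-transcript score, and Mycn was -0.004 with array weights. There Bmp10 was 0.018 with quantile normalization, 0.007 with lane, 0.033 with sex-linked expression and 0.133 with cardiomyocyte markers, Irx4 was 0.001 with cardiomyocyte markers, and Nrg1 was 0.008 with lane, 0.045 with cardiomyocyte markers and 0.006 with the long-transcript score.

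On omission of single hearts, the differences that turned ran from -0.034 to 0.035 for Erbb4 and from -0.036 to 0.017 for Mycn (Dp1Tyb compared to WT), from -0.027 to 0.006 for Irx3 and from -0.037 to 0.108 for Nppa (Dp1TybDyrk1a+/+/- compared to WT), and from -0.066 to 0.035 for Bmp10, 0 to 0.1 for Mycn, -0.051 to 0.104 for Nppa and -0.054 to 0.004 for Nrg1 (Dp1Tyb compared to Dp1TybDyrk1a+/+/-). Within lanes, where some genotypes have 1 heart and no test was made, 5, 6 and 8 of 30 differences had the other sign. The largest unadjusted P-value among called genes was 0.0015, 0.000333 and 0.000576 in the 3 comparisons. This cut-off depends on how many genes a fit calls, and it is not a fixed detection limit of the design. Over all tested genes, 277 were called higher and 194 lower in the first comparison, 96 and 13 in the second and 65 and 113 in the third. In all, 1422, 341 and 1247 were called with array weights, 779, 98 and 3 with only the 2 genotypes in the fit, and 230, 106 and 10 with sex-linked expression as a covariate. In the third comparison 29 were called with lane and 17 with cardiomyocyte markers as a covariate, 76 with no filter on low values, 100 with a minimum mean count of 1 and 273 with one of 100. Sequencing depth is unknown. No paired analysis was possible because the replicate numbers are running library numbers that no 2 hearts share.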
